A study of Mus musculus with 12 samples.

Results

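The Rab small GTPases were followed across 12 arrays of mouse bone marrow macrophages from IRAK4 kinase-dead (KD) and wild-type (WT) animals, resting or exposed to lipopolysaccharide (LPS). Members were the array probe sets whose single annotated gene symbol was Rab followed by a number and at most a letter and a digit. Of 132 such probe sets, covering 59 symbols, the one with the highest mean signal stood for each gene. A gene was kept when that probe set exceeded the array's median signal on 2 or more arrays, which left 49 of the 12914 genes that passed the same filter. The filter used signal level alone and no contrast between groups.

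Rab proteins are molecular switches on the surface of membrane compartments. A guanine nucleotide exchange factor (GEF) loads a Rab with GTP, the active Rab recruits effectors that move, tether or fuse vesicles, and a GTPase-activating protein (GAP) returns it to the GDP form, which GDP dissociation inhibitor extracts from the membrane. Macrophages use these proteins to mature phagosomes, to sort Toll-like receptors between the cell surface, endosomes and lysosomes, and to secrete cytokines. IRAK4 is the kinase that acts directly below the adaptor MyD88 when Toll-like receptor 4 senses LPS.

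The arrays fell into 6 groups, which entered the comparisons. The groups were KD cells kept 4 h without stimulus, KD cells given 1 µg/ml LPS for 1 h, KD cells given LPS for 4 h, and WT cells under the same 3 conditions, with 2 biological replicates in each group. All cells were grown in a serum-containing medium supplemented with L-929 conditioned medium, a source of macrophage growth factor, and no allele other than the IRAK4 kinase-dead one is named. Nothing states whether the replicates came from separate animals, so the p-values measure only the spread between these cultures. The unstimulated cells were collected at 4 h, so a 1 h comparison also differs in time in culture.

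Values are MAS5 signals, a linear brightness per probe set that the authors scaled to a trimmed mean of 150 on every array. Array medians ran between 24.2 and 26.9 signal units in KD arrays and between 18.9 and 22 in WT arrays. Spearman correlations between replicates were 0.932 to 0.959. The first unstimulated KD replicate stood apart in its ratio of 3' to 5' probe signal, with log2 ratios of 1.35 for Gapdh and 3.03 for Actb, against 0.81 to 1.17 and 2.21 to 2.83 on the other 11 arrays. No probe set carried the symbol Irak4, so the genotype was not checked on the arrays. All 8 macrophage markers examined were on the array, and their summed signal was 20150 to 25920 in KD arrays and 17850 to 22810 in WT arrays. Summed signals of the neutrophil, lymphoid, dendritic, erythroid and mast cell lists reached at most 121.3. Some of these lists were only partly on the array. It held 5 of 7 neutrophil, 5 of 6 T and NK cell, 4 of 5 B cell and 2 of 4 erythroid markers. The stromal list had higher sums, from 2513 to 5583, which are given by group below.

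Of the 49 members, 37 exceeded the array median on all 12 arrays, among them the widely expressed Rabs Rab1a, Rab5c, Rab7, Rab11a and Rab14. Another 12 did so on 2 to 11 arrays, and 6 of these on 7 arrays or fewer. The 10 genes that were not kept exceeded it on 0 arrays: Rab3b, Rab6b, Rab9b, Rab17, Rab25, Rab26, Rab27b, Rab37, Rab39b and Rab44. At the edge of the filter, Rab33a lay just inside with 2 arrays and a mean signal of 17.2, and Rab39b lay just outside with 0 arrays and a mean signal of 12.1. Of the members that passed the filter through some arrays only, Rab19, Rab20, Rab27a, Rab38 and Rab42 appear among the called results below. Probe sets differ in their response to RNA, so signals are compared between arrays for 1 gene and not between genes.

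**Figure D1:**
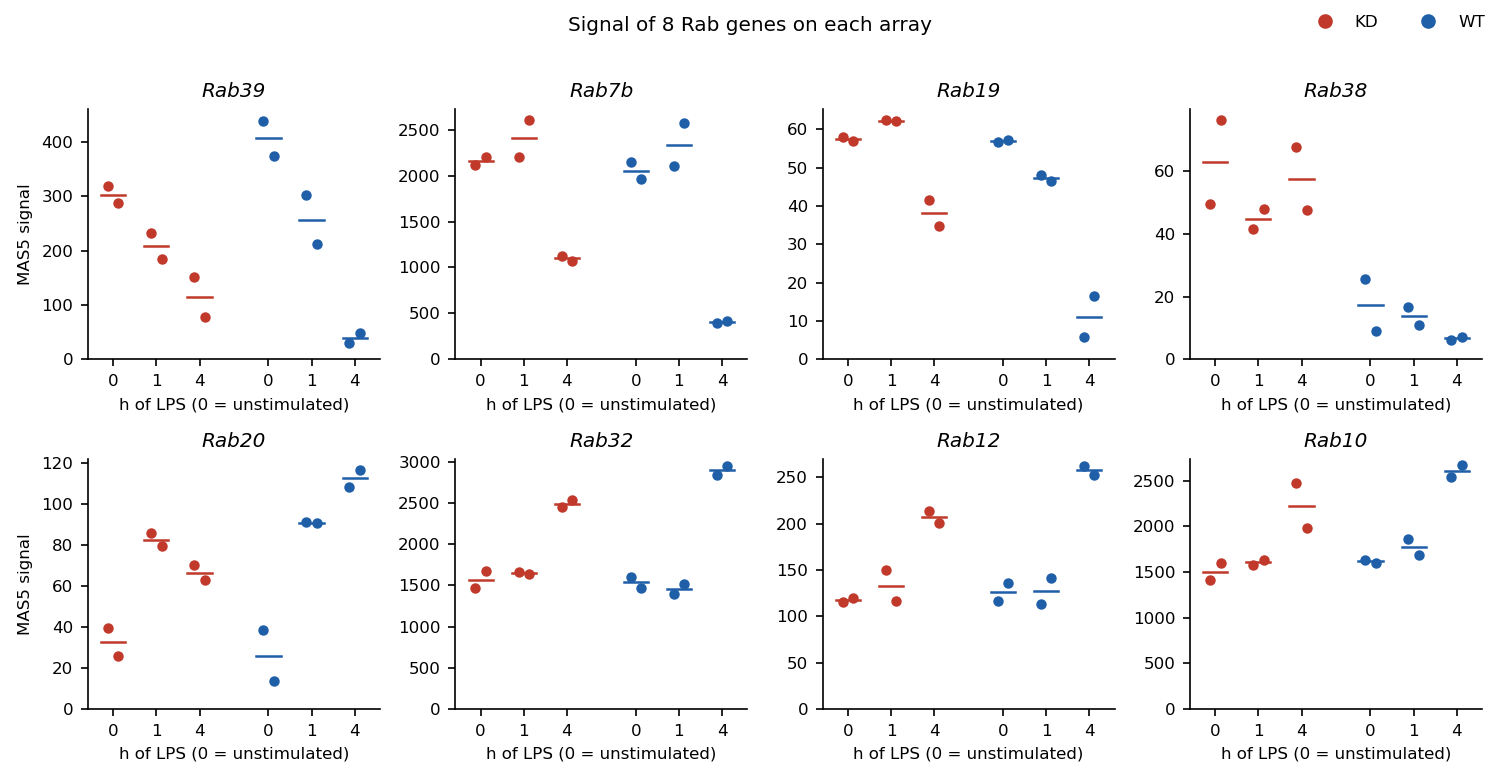
MAS5 signal of 8 Rab genes (vertical axis from 0) against h of LPS, with unstimulated cells at 0, for KD arrays in red on the left and WT arrays in blue on the right; each dot is 1 array and each line the mean of 2. Rab39, Rab7b and Rab19 are lowest at 4 h in WT arrays. Rab38, which passed the signal filter through its KD arrays, is higher on every KD array than on any WT array. Rab20, Rab32, Rab12 and Rab10 lie higher on every 4 h array than on any unstimulated array of the same strain.

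At 4 h of LPS, 9 of the 49 members were called changed in KD macrophages, 3 higher and 6 lower, and 13 in WT macrophages, 6 higher and 7 lower. A call is an adjusted p under 0.05 in the limma fit over all 27931 tested probe sets. Among all tested probe sets, 10.0% were called at 4 h in KD cells (5.30% higher, 4.70% lower) and 17.1% in WT cells (6.95% higher, 10.2% lower). The members' own shares were 18.4% in KD cells and 26.5% in WT cells. These shares count only the brightest probe set of each gene, whereas those of all tested probe sets include dimmer and secondary ones. Whether the members exceeded other genes counted in the same way was not tested. The same limit holds wherever members, role groups or markers are set beside all tested probe sets below. The members' median log2 change was -0.17 in KD cells, beside -0.046 over all tested probe sets, and -0.14 in WT cells, beside -0.12. That general WT shift of -0.12 was -0.053 after quantile normalization, and the WT changes at 4 h are to be read against it. Under quantile normalization the calls at 4 h were 4 higher and 5 lower in KD cells and 5 higher and 9 lower in WT cells. Without the first KD 4 h replicate the KD count was 5.

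At 1 h fewer members passed the test. In KD macrophages 5 were called, 3 higher and 2 lower, where 5.47% of all tested probe sets were called (3.17% higher, 2.29% lower). In WT macrophages 3 were called, 1 higher and 2 lower, a share of 6.12% that equalled the 6.12% of all tested probe sets (2.89% higher, 3.23% lower). These 1 h counts depended on the arrays and the test: leaving out the second unstimulated KD replicate took the KD count to 0, leaving out the second unstimulated WT replicate took the WT count to 0, and a variance prior without a trend gave 0 in both strains. The KD count was 1 without either KD 1 h replicate and 3 without either WT 4 h replicate, and the WT count was 1 without the first unstimulated or the second 1 h WT replicate.

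**Figure D2:**
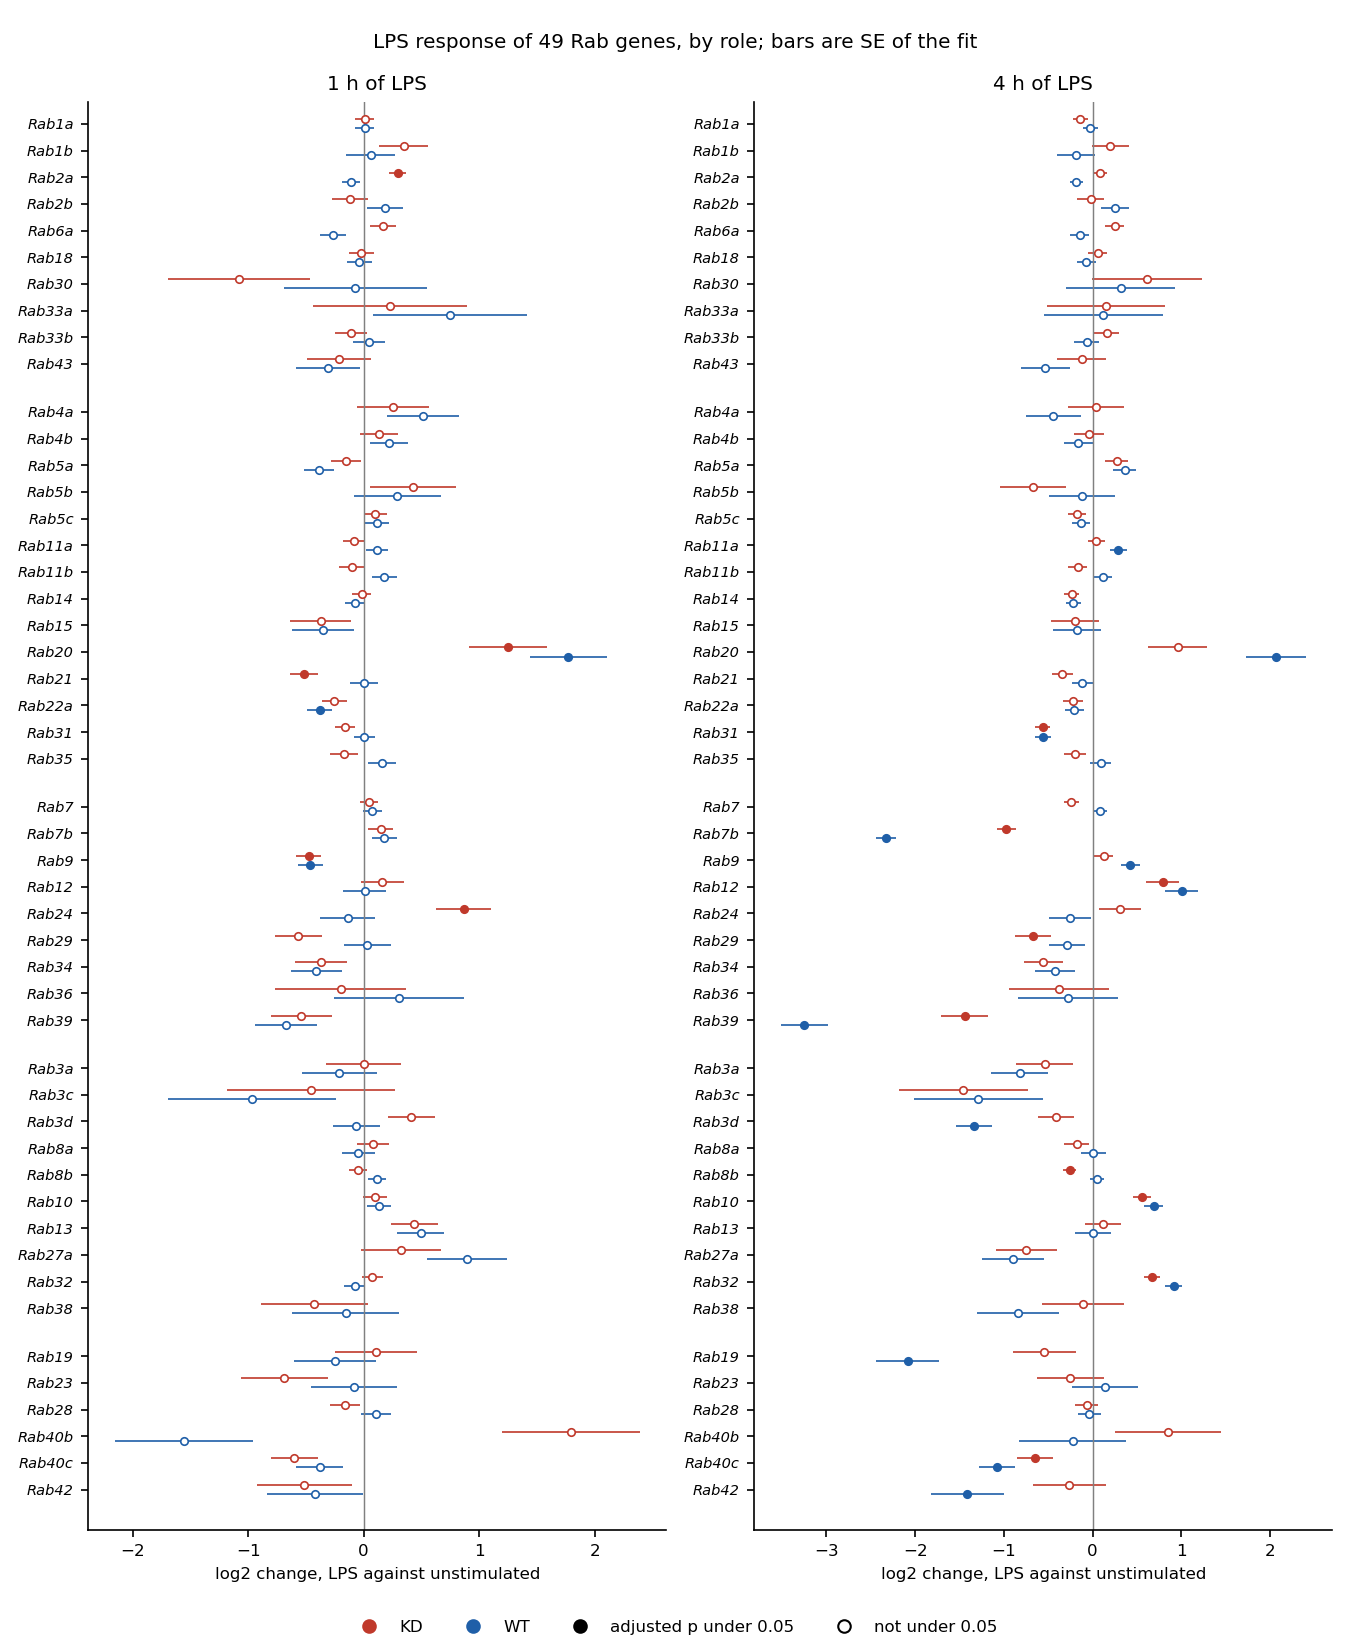
Log2 change of each Rab member with LPS against unstimulated cells, at 1 h and 4 h, in KD macrophages and in WT macrophages, with KD in red above WT in blue, bars for the standard error, and filled marks for adjusted p under 0.05. Genes are grouped by role. At 4 h Rab39 and Rab7b lie farthest below 0 among the called members in both strains, and Rab20, Rab12, Rab32 and Rab10 lie above 0.

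Among the 9 members of late endosomes, lysosomes and autophagy, 4 were called at 4 h in KD cells, 1 higher and 3 lower. In WT cells 4 were called, 2 higher and 2 lower. Both are shares of 44.4%, beside 10.0% of all tested probe sets in KD cells and 17.1% in WT cells. The role groups are small and were drawn up with earlier results known, and differences between them were not tested. Rab7b and Rab39 fell in both strains, Rab12 rose in both, Rab29 fell in KD cells and Rab9 rose in WT cells. Rab7b, which in macrophages is known for directing Toll-like receptors to lysosomes, had KD signals of 2115.9 and 2207.7 unstimulated, 2203.0 and 2610.0 at 1 h and 1127.7 and 1069.1 at 4 h. Its WT signals were 2148.8 and 1960.1 unstimulated, 2105.1 and 2570.8 at 1 h and 396.7 and 412.6 at 4 h. The 4 h arrays lay below every other array of their strain, and the WT 4 h arrays below the KD 4 h arrays. On the log2(signal + 4.4) scale, on which all changes are given with the standard error of the fit, Rab7b changed by -0.97 ± 0.11 at 4 h in KD cells (adjusted p = 4.54e-06) and by -2.33 ± 0.11 in WT cells (adjusted p = 8.51e-12). At 1 h its changes were 0.15 ± 0.11 in KD cells and 0.18 ± 0.11 in WT cells, neither called.

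Rab39, a Rab of late endosomes and phagosomes, had KD signals of 318.8 and 287.3 unstimulated, 232.3 and 183.9 at 1 h and 151.7 and 77.4 at 4 h. WT signals were 439.5 and 373.3 unstimulated, 301.9 and 211.6 at 1 h and 30.4 and 48.8 at 4 h. In both strains both 1 h arrays lay below both unstimulated arrays, and both 4 h arrays lay below both 1 h arrays. The fall at 4 h was -1.44 ± 0.27 in KD cells (adjusted p = 0.00112) and -3.25 ± 0.27 in WT cells (adjusted p = 3.18e-08). These correspond to 0.368 and 0.105 of the unstimulated level. The 1 h changes of -0.54 ± 0.27 in KD cells and -0.67 ± 0.27 in WT cells did not pass the test.

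Rab12, which in mouse cells carries cargo from recycling endosomes to lysosomes, rose at 4 h. Its KD signals were 213.4 and 200.8 at 4 h, against 115.3 and 120.3 unstimulated, and its WT signals were 262.0 and 252.6 at 4 h, against 116.3 and 136.1 unstimulated. The groups did not overlap. Such separation, given for other genes too, is common by chance with 2 arrays a group and was not counted over all probe sets. The changes were 0.79 ± 0.19 in KD cells (adjusted p = 0.00862) and 1.01 ± 0.19 in WT cells (adjusted p = 0.000636). The KD call was lost without the first KD 4 h array (0.75). Rab9, which returns mannose 6-phosphate receptors from late endosomes to the Golgi, lay lower at 1 h of LPS and higher at 4 h than in unstimulated cells. Its KD signals were 715.4 and 738.5 unstimulated, 512.1 and 530.6 at 1 h and 799.1 and 787.4 at 4 h, and its WT signals were 657.3 and 674.8 unstimulated, 506.4 and 460.4 at 1 h and 886.5 and 903.5 at 4 h. The fall at 1 h was called in both strains, at -0.48 ± 0.11 in KD cells (adjusted p = 0.0101) and -0.46 ± 0.11 in WT cells (adjusted p = 0.0122). The 4 h value was called in WT cells only, at 0.42 ± 0.11 (adjusted p = 0.00804), beside 0.13 ± 0.11 in KD cells, and the test of the strain difference was not passed (-0.30 ± 0.15, adjusted p = 0.36). Each of the 3 calls of Rab9 was lost with 2 or 3 single arrays of its own contrast, at values between -0.48 and -0.39 at 1 h and 0.41 and 0.44 at 4 h.

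Rab24, which takes part in autophagy, was called at 1 h in KD cells, with signals of 271.1 and 228.1 against 155.9 and 115.5 unstimulated (0.87 ± 0.24, adjusted p = 0.0378). Its change at 1 h in WT cells was -0.14 ± 0.24. Rab29, a partner of the kinase LRRK2, had KD signals of 138.1 and 149.1 at 4 h, against 244.1 and 220.0 unstimulated (-0.68 ± 0.20, adjusted p = 0.0398). In WT cells its change at 4 h was -0.29 ± 0.20. The call of Rab24 was lost when any of 5 single arrays was dropped (the second unstimulated KD array, either KD 1 h array or either WT 4 h array), and that of Rab29 when any unstimulated or 4 h KD array was. Rab7, the main Rab of late endosome to lysosome fusion, had changes of -0.24 ± 0.08 in KD cells and 0.08 ± 0.08 in WT cells at 4 h, and Rab34, which positions lysosomes, had -0.55 ± 0.22 and -0.42 ± 0.22 in the same order. None of these passed the test, nor did any change of Rab36. Rab7's KD change was however called under the stricter filter (-0.24) and without the second unstimulated KD array (-0.36), and Rab34's KD change was called without that same array (-0.92).

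Among the 14 members of early and recycling endosomes, 1 was called at 4 h in KD cells and 3 in WT cells. These are shares of 7.14% and 21.4%, beside 10.0% and 17.1% of all tested probe sets. Rab20 rose with LPS and Rab31 fell, while the early endosome Rabs Rab5a, Rab5b and Rab5c did not pass the test in any of the 4 LPS comparisons. Rab20, which takes part in phagosome maturation, had KD signals of 39.3 and 26.0 unstimulated, 85.8 and 79.3 at 1 h and 70.2 and 62.8 at 4 h. WT signals were 38.5 and 13.7 unstimulated, 91.0 and 90.8 at 1 h and 108.1 and 116.6 at 4 h. Every stimulated array lay above every unstimulated one. The changes called were 1.25 ± 0.34 at 1 h in KD cells (adjusted p = 0.0342), 1.77 ± 0.34 at 1 h in WT cells (adjusted p = 0.00266) and 2.07 ± 0.34 at 4 h in WT cells (adjusted p = 0.000175). The last is a 4.19-fold level, which rests on 2 unlike unstimulated arrays, 1 of them (13.7) under its array's median: the log2 change was 1.44 without that array and 2.69 without the other, called both times. The WT call at 1 h was lost without the second unstimulated WT array (1.15), and the KD call at 1 h without the second unstimulated KD array (0.99), either KD 1 h array or either WT 4 h array. At 4 h in KD cells the change was 0.96 ± 0.34 (adjusted p = 0.085). It was called after quantile normalization (1.05) and when either unstimulated WT array was left out of the shared fit (0.96). The strain difference in the 4 h response was not called (-1.11 ± 0.48, adjusted p = 0.264).

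Rab31, which carries cargo between the trans-Golgi network and endosomes, had KD signals of 2022.9 and 2032.4 at 4 h, against 3231.7 and 2786.4 unstimulated. WT signals were 1823.8 and 1654.5 at 4 h, against 2549.6 and 2568.9 unstimulated. The groups did not overlap in either strain, and both changes were -0.56 ± 0.09 (adjusted p = 0.000241 in KD cells and 0.00014 in WT cells). Rab11a, the central Rab of the recycling endosome, was called in WT cells at 4 h with a change of 0.29 ± 0.09 (adjusted p = 0.0421), beside 0.04 ± 0.09 in KD cells. This call was lost under quantile normalization, and when the first unstimulated WT array (0.20) or any 4 h array was dropped, and Rab11a's other probe set gave 0.57, called, in KD cells and 0.067, not called, in WT cells. The strain in which Rab11a was called thus differed between its probe sets. Rab21, which traffics integrins, was called lower at 1 h in KD cells (-0.51 ± 0.12, adjusted p = 0.0143), and Rab22a, of early endosomes, at 1 h in WT cells (-0.38 ± 0.11, adjusted p = 0.0435). Each of these 2 genes had another probe set with a change of the opposite sign, at 0.17 and 0.34. The call of Rab22a was lost with 10 of the 12 arrays dropped in turn, and that of Rab21 without the second unstimulated KD array (-0.33) or either KD 1 h array.

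The Rab5 genes and Rab14 mark early endosomes and young phagosomes. Rab5a changed by 0.27 ± 0.13 at 4 h in KD cells and 0.36 ± 0.13 in WT cells, with adjusted p of 0.239 and 0.0672. The WT value of Rab5a was called under the stricter filter and with the arrays of that comparison alone, and Rab5b's KD change at 4 h was called without a variance trend (-0.67). Rab5c stayed between 1418.8 and 1841.7 signal units on the KD arrays and between 1452.7 and 1933.4 on the WT arrays. Rab14 changed by -0.23 ± 0.08 in KD cells and -0.22 ± 0.08 in WT cells at 4 h, neither called. The WT value was called under quantile normalization (-0.35). Rab14 has several probe sets without an identifier suffix, and the brightest of them was called in both strains (-0.31 in KD cells and -0.27 in WT cells). Rab4a, Rab4b, Rab11b, Rab15 and Rab35 were not called in any of the 9 comparisons.

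Of the 10 members of exocytosis and lysosome-related organelles, 3 were called at 4 h in each strain, 2 higher and 1 lower. That is 30.0% in each strain, beside 10.0% of all tested probe sets in KD cells and 17.1% in WT cells. Rab10 and Rab32 rose in both strains, Rab3d fell in WT cells and Rab8b fell in KD cells. Rab10, known in mouse macrophages for carrying Toll-like receptor 4 to the cell surface, had KD signals of 2473.4 and 1977.2 at 4 h, against 1413.6 and 1592.9 unstimulated. Its WT signals were 2536.8 and 2671.0 at 4 h, against 1626.5 and 1602.8 unstimulated. The changes were 0.56 ± 0.10 in KD cells (adjusted p = 0.00133) and 0.69 ± 0.10 in WT cells (adjusted p = 8.28e-05). Both of Rab10's other probe sets were also called higher in both strains, with changes between 0.38 and 0.50. The KD call of the probe set in use was lost without the first KD 4 h array (0.40).

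Rab32, a Rab of lysosome-related organelles that serves in the defence of macrophages against vacuolar bacteria, had KD signals of 2450.7 and 2538.6 at 4 h, against 1469.2 and 1670.8 unstimulated. WT signals were 2837.6 and 2954.6 at 4 h, against 1599.8 and 1474.7 unstimulated. No array of 1 group fell within the other, and the changes were 0.67 ± 0.09 in KD cells (adjusted p = 5.38e-05) and 0.91 ± 0.09 in WT cells (adjusted p = 5.09e-07). Rab3d, of secretory granules, had WT signals of 56.6 and 69.8 at 4 h, against 178.4 and 153.7 unstimulated, a change of -1.34 ± 0.20 (adjusted p = 6.89e-05). Its KD signals were 100.2 and 106.9 at 4 h, against 128.5 and 150.2 unstimulated, and the change of -0.41 ± 0.20 was not called. The strain difference in that response, 0.93 ± 0.28, also missed the threshold (adjusted p = 0.0896).

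Rab8b, which carries vesicles from the Golgi to the plasma membrane, was called lower at 4 h in KD cells (-0.26 ± 0.08, adjusted p = 0.0406), but the change was -0.096 and not called after quantile normalization, and the call was lost with 9 of the 12 arrays dropped in turn. Its relative Rab8a changed by -0.18 ± 0.14 in KD cells and 0.01 ± 0.14 in WT cells. Rab27a, which docks secretory granules and lysosome-related organelles, had 4 h changes of -0.75 ± 0.35 in KD cells and -0.90 ± 0.35 in WT cells, neither called. Rab38, the paralogue of Rab32, had -0.11 ± 0.46 and -0.84 ± 0.46, likewise not called. Rab3a, Rab3c and Rab13 were not called in any of the 9 comparisons.

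Of the 10 members of endoplasmic reticulum and Golgi traffic, 0 were called at 4 h in either strain. The shares of all tested probe sets called there were 10.0% in KD cells and 17.1% in WT cells. In this group 1 member in KD cells and 1 in WT cells had an unadjusted p under 0.05. Their changes at 4 h lay between -0.14 and 0.61 in KD cells and between -0.53 and 0.32 in WT cells. Rab1a, which sends vesicles out of the endoplasmic reticulum, had signals of 3838.2 to 4408.9 on the KD arrays and 3887.8 to 4467.9 on the WT arrays. The group's LPS call was Rab2a, of the same early step, at 1 h in KD cells. Rab2a had 4328.1 and 4583.4 signal units there, against 3704.0 and 3556.6 unstimulated (0.29 ± 0.08, adjusted p = 0.026), and 1 of its 5 other tested probe sets had the opposite sign (-0.25). The call was lost without the second unstimulated KD array (0.27) or either KD 1 h array (0.25 and 0.34). Rab1b, Rab2b, Rab18, Rab30, Rab33a, Rab33b and Rab43 were not called in any of the 9 comparisons.

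Among the remaining 6 members, 1 was called at 4 h in KD cells and 3 in WT cells, all lower. The shares of all tested probe sets called lower were 4.70% in KD cells and 10.2% in WT cells. Rab19 had WT signals of 5.7 and 16.4 at 4 h, against 56.8 and 57.3 unstimulated, a change of -2.08 ± 0.35 (adjusted p = 0.000258). Its KD signals were 41.6 and 34.9 at 4 h, against 58.0 and 57.1 unstimulated, and the change of -0.54 ± 0.35 was not called. The WT 4 h arrays were the 2 of the 12 on which Rab19 did not exceed the array median. Rab40c, a Rab with a SOCS box that recruits a ubiquitin ligase, had WT signals of 68.7 and 83.2 at 4 h, against 145.1 and 186.2 unstimulated (-1.08 ± 0.20, adjusted p = 0.000743). In KD cells it had 145.3 and 108.0 at 4 h, against 206.7 and 192.4 unstimulated (-0.65 ± 0.20, adjusted p = 0.0479), a call that was lost with 11 of the 12 arrays dropped in turn. Rab42 was called in WT cells, with 8.2 and 12.0 at 4 h against 34.0 and 33.8 unstimulated (-1.41 ± 0.41, adjusted p = 0.0226), a call lost without either unstimulated WT array or the first WT 4 h array (-1.22). Its KD change was -0.26 ± 0.41. Rab23, Rab28 and Rab40b were not called in any of the 9 comparisons.

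Start-site sequence was available from RefSeq (GRCm38.p6) for 42 of the 49 members, from 250 bases before the start to 50 bases after it. The windows of Rab20, Rab32 and Rab12, which rose with LPS in WT cells, are shown with that of Rab39, which fell; all 4 genes lie on the minus strand. They are written 5' to 3' on the gene's strand, and capitals mark matches to the motifs searched on both strands.
Rab20, chr8:11478591-11478890: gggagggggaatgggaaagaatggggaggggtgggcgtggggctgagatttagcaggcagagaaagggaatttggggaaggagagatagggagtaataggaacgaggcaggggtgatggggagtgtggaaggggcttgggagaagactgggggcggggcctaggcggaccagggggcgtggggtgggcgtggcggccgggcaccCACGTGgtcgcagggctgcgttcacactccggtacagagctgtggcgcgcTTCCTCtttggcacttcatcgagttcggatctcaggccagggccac
Rab32, chr10:10558158-10558457: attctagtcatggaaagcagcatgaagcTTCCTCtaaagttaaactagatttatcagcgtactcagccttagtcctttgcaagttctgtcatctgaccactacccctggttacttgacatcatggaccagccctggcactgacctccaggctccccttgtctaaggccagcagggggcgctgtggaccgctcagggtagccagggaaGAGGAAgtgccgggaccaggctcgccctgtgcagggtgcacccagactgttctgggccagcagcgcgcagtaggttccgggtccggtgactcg
Rab12, chr17:66519621-66519920: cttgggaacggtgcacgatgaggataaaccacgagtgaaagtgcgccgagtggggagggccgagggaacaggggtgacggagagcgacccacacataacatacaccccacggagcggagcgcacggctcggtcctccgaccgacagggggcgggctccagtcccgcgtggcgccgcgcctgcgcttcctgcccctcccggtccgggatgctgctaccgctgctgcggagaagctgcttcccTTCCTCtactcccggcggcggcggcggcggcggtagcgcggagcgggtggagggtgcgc
Rab39, chr9:53706183-53706482: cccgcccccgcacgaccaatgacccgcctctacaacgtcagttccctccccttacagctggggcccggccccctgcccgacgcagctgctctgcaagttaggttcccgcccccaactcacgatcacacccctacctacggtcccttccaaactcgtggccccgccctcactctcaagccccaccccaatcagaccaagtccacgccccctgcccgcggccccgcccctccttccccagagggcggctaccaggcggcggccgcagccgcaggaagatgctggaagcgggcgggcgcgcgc

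The capitals in Rab20 are the E-box CACGTG, bound by basic helix-loop-helix factors, at -46 to -41 and the core GAGGAA of the myeloid factor PU.1, on the opposite strand, at 5 to 10 from the start. Rab32 held 2 PU.1 cores, at -222 to -217 and -43 to -38, Rab12 held 1 at -9 to -4, and the Rab39 window held 0 matches. Some genes have more than 1 start site, and the 42 members had 54 windows. The PU.1 core was found in 10 of these 54 windows (18.5%) and in 28.1% of 32544 promoter windows of the same length. The E-box was found in 6 of 54 (11.1%) and in 7.17% of all windows. The kappaB motif was found in 3 member windows (8.49% of all windows), the AP-1 site TGANTCA in 2 (7.79% of all) and the ISRE core motif of interferon response in 1 (3.45% of all). The windows shown are a selection. Of the other members called higher at 4 h in WT cells, Rab10 and Rab9 held 0 matches to any motif. Rab11a held 1 kappaB match and 0 PU.1 cores. Of those called lower there, Rab19 held 2 ISRE core matches, and Rab31, Rab3d, Rab40c and Rab42 held 0 matches. Rab7b, also called lower there, was among the members without start-site sequence. A match describes the letters and is no evidence of binding.

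The strains were compared directly in the same fit. Before stimulation 2 of the 49 members were called, 1 higher and 1 lower in KD cells, where 5.25% of all tested probe sets were called (2.37% higher, 2.87% lower). That count was 4 without the first unstimulated KD replicate and 1 without any of the other 3 unstimulated replicates, the second KD 1 h replicate or the first KD 4 h replicate. After 1 h of LPS 0 were called by limma, with 5 at an unadjusted p under 0.05, where 1.11% of all were called (0.573% higher, 0.533% lower). After 4 h 6 members were called, all higher in KD cells, where 5.37% of all were called (3.13% higher, 2.24% lower). Those 6 were Rab38, Rab19, Rab42, Rab7b, Rab39 and Rab27a. Rab38 passed the signal filter through its KD arrays, so its call is no support for a difference. Without the first WT 4 h replicate 2 of the 6 calls were made, and without the first KD 4 h replicate 1 was. The members' median log2 difference at 4 h was 0.071, beside 0.083 over all tested probe sets.

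At 4 h of LPS Rab7b was 1.43 ± 0.11 higher in KD than in WT cells on the log2 scale, a 2.70-fold level (adjusted p = 1.71e-07). Rab39 was 1.39 ± 0.27 higher (adjusted p = 0.00346) and Rab19 1.55 ± 0.35 higher (adjusted p = 0.0126). Both calls were lost without the first WT 4 h array (1.09 and 1.03) and without the first KD 4 h array (0.93 and 1.44), and that of Rab19 also without the second KD 4 h array (1.67). Rab42 had KD signals of 32.3 and 41.8, against WT signals of 8.2 and 12.0 (1.52 ± 0.41, adjusted p = 0.0371). Rab27a had KD signals of 60.2 and 35.1, against WT signals of 15.1 and 19.5 (1.23 ± 0.35, adjusted p = 0.0465). These groups did not overlap, which is common by chance with 2 arrays each. The calls of Rab42 and Rab27a were lost with 6 and 5 of the 12 arrays dropped in turn and under quantile normalization.

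Rab38 exceeded the array median on 7 arrays, all 6 of the KD cells and 1 of unstimulated WT cells, so it passed the filter through the KD arrays. Its presence among the called members is therefore no support for a difference. Its KD signals were 49.5 and 76.2 unstimulated, 41.5 and 47.9 at 1 h and 67.6 and 47.5 at 4 h, while its WT signals were 25.7 and 8.9 unstimulated, 16.8 and 10.8 at 1 h and 6.3 and 7.2 at 4 h. Every KD array lay above every WT array. The WT 4 h signals lay below their array medians of 20.4 and 18.9, so the size of the difference there is uncertain. The difference was 1.72 ± 0.46 unstimulated (adjusted p = 0.0355) and 2.46 ± 0.46 at 4 h (adjusted p = 0.00312), and 1.45 ± 0.46 at 1 h was not called (adjusted p = 0.16). The probe set is of the type that can cross-hybridize, and Rab38's other probe set stayed below the array median on all 12 arrays. The 4 h call was lost without the first KD 4 h array (2.22). The unstimulated call was lost under quantile normalization and without the second unstimulated WT array (1.13), the second unstimulated KD array (1.43), the second KD 1 h array or the first KD 4 h array. Rab6a, which works in retrograde Golgi traffic, was the member called lower in unstimulated KD cells, with 1785.1 and 1634.5 against 2433.0 and 2122.5 in WT cells (-0.41 ± 0.11, adjusted p = 0.0326). A further Rab6a probe set was called too (-0.89), and another gave -0.13. The call was lost without the first unstimulated WT array (-0.31) or the second unstimulated KD array (-0.35).

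**Figure D3:**
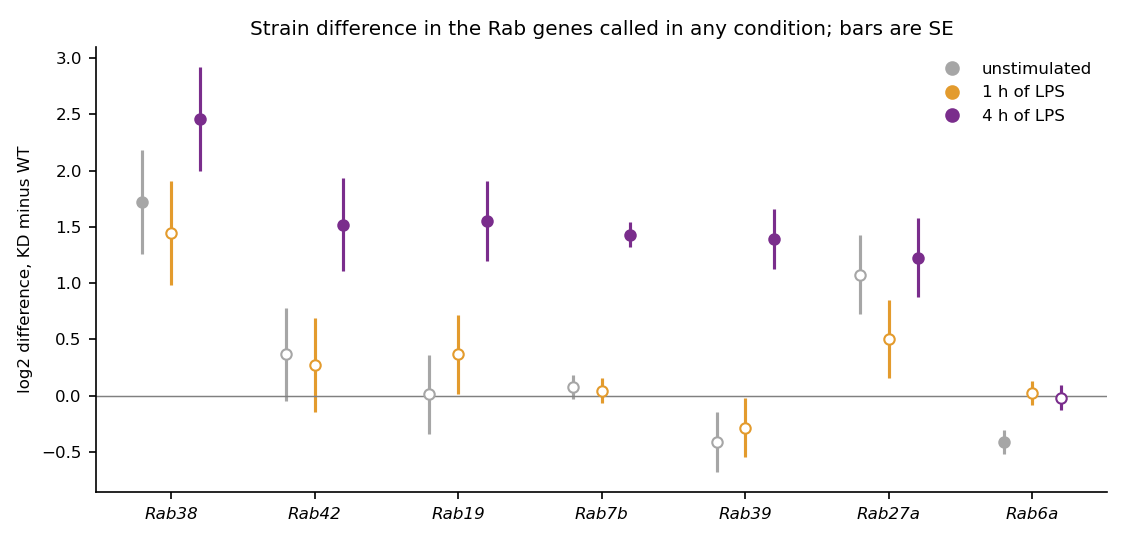
Log2 difference between KD and WT macrophages for the Rab members called in any strain comparison, unstimulated and after 1 h and 4 h of LPS, with bars for the standard error and filled marks for adjusted p under 0.05. The called differences at 4 h all lie above 0. Rab38 lies above 0 in each of the 3 conditions, but it passed the signal filter through its KD arrays.

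Whether the response itself differed was tested as the KD change minus the WT change. At 1 h 0 members were called by limma, with 5 at an unadjusted p under 0.05, where 0.326% of all tested probe sets were called (0.175% higher, 0.150% lower). At 4 h 2 members were called, both above 0, where 3.07% of all were called (1.88% higher, 1.19% lower). Without the second unstimulated KD replicate 4 were called, with Rab7 and Rab8b added below 0. Rab39 had a difference of 1.81 ± 0.38 (adjusted p = 0.0119) and Rab7b one of 1.36 ± 0.15 (adjusted p = 9.68e-05), so that in both genes the fall was smaller in KD cells. The call of Rab7b was kept whichever of the 12 arrays was dropped. That of Rab39 was lost without the first unstimulated WT replicate (1.69), without the first WT 4 h replicate (1.50) and without the first KD 4 h replicate (1.34). Both calls were lost when the variance prior had no trend. Rab19's difference of 1.54 ± 0.50 was not called (adjusted p = 0.113).

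A second probe set of Rab7b gave a 4 h change of -0.58 ± 0.46 in KD cells, -3.53 ± 0.46 in WT cells and a called difference of 2.95 ± 0.64 (adjusted p = 0.0162). The remaining probe set gave 0.52 ± 0.46, not called. Over all 40 called results of the 22 genes concerned, 18 had another tested probe set of the same gene. In 15 of these every other probe set had the same sign, and in 9 another was called as well.

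Stromal cell markers moved along with some of these contrasts. Of the 11 stromal markers tested, 6 were called higher with LPS in KD cells at 1 h and 6 at 4 h. Among all tested probe sets 3.17% and 5.30% were called higher there. In WT cells 1 stromal marker was called higher at 1 h and 2 lower at 4 h, where 2.89% and 10.2% of all were. In unstimulated cells 5 were called lower in KD than in WT, where 2.87% of all were. In the strain difference of the 4 h response 6 were called above 0, where 1.88% of all were. Between the strains at 1 h of LPS 3 were called, 1 higher and 2 lower in KD cells, where 0.573% and 0.533% of all were. At 4 h 2 were called, both higher in KD cells, where 3.13% of all were. Their summed signal was 2513 to 2965 in unstimulated KD arrays, 4264 to 5295 in KD arrays at 1 h and 4511 to 4855 in KD arrays at 4 h. In WT arrays it was 4851 to 5045 unstimulated, 5475 to 5583 at 1 h and 3793 to 4202 at 4 h. Lum was under the added 4.4 units on both arrays of 4 of the 6 groups. Of the 8 macrophage markers, 3 were called higher in unstimulated KD than WT cells, 3 lower at 4 h of LPS in KD cells, and 2 below 0 in the strain difference of the 4 h response. Among all tested probe sets 2.37%, 4.70% and 1.19% were called so, in the same order. The macrophage marker Itgam was called higher in KD than WT cells at 4 h (1.50). Its KD signals there were 69.6 and 62.1, against unlike WT signals of 11.8 and 33.5. The 11.8 lay under its array's median of 20.4, so the size of that difference is uncertain. With LPS in WT cells 1 macrophage marker was called higher at 1 h, and 1 higher and 1 lower at 4 h. The shares of all tested probe sets were 2.89%, 6.95% and 10.2% in the same order. In such bulk samples fewer cells of a type and less RNA per cell cannot be told apart, and the part of these markers' cells in the Rab results was not tested. Without the first unstimulated KD replicate, whose probe ratios stood apart, 37 of the 40 calls were kept, and the differences in response were 1.88 for Rab39 and 1.33 for Rab7b, both called.

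The genes that load, switch off, extract and read Rabs were examined as 4 lists. In the list of GDP dissociation inhibitors, escort proteins and prenylation enzymes, 7 of 8 genes were tested and 0 were called at 4 h in either strain (3 in KD cells and 2 in WT cells at an unadjusted p under 0.05). Chm, a Rab escort protein, was called lower at 1 h in WT cells (-0.54 ± 0.11, adjusted p = 0.00449). Of 32 GEF genes tested, 2 were called higher and 4 lower at 4 h in KD cells, and 2 higher and 9 lower in WT cells. Of 31 GAP genes, 2 were higher and 2 lower in KD cells, and 3 higher and 6 lower in WT cells. Of 35 effector genes, 4 were higher and 5 lower in KD cells, and 4 higher and 11 lower in WT cells. The called shares in KD cells were 18.8% of GEFs, 12.9% of GAPs and 25.7% of effectors, beside 10.0% of all tested probe sets. In WT cells they were 34.4%, 29.0% and 42.9% of the same lists, beside 17.1%. The list shares count 1 probe set a gene, the brightest, whereas the shares beside them cover every tested probe set. The lists were also chosen with earlier results of these data known. Whether the lists exceeded other genes counted in the same way was not tested. At 1 h the called counts were 2 GEF, 0 GAP and 4 effector genes in KD cells and 3, 2 and 4 in WT cells, where 5.47% of all tested probe sets were called in KD cells and 6.12% in WT cells. Median log2 changes at 4 h were -0.087 for GEFs, -0.041 for GAPs and -0.10 for effectors in KD cells, beside -0.046 over all tested probe sets, and -0.24, -0.27 and -0.27 in WT cells, beside -0.12.

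Rab11fip1, an effector that binds Rab11 on recycling endosomes, rose with LPS in both strains and at both times. Its KD signals were 54.4 and 58.3 unstimulated, 311.2 and 222.3 at 1 h and 334.6 and 348.9 at 4 h, and its WT signals were 47.7 and 54.2 unstimulated, 319.6 and 332.8 at 1 h and 915.8 and 932.9 at 4 h. The KD arrays lay just above the WT arrays before stimulation and below them at 1 h and 4 h. The changes were 2.14 ± 0.17 at 1 h and 2.51 ± 0.17 at 4 h in KD cells, and 2.58 ± 0.17 and 4.07 ± 0.17 in WT cells. The strain difference in the 4 h response was -1.56 ± 0.24 (adjusted p = 0.0016) and was called whichever of the 12 arrays was dropped.

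**Figure D4:**
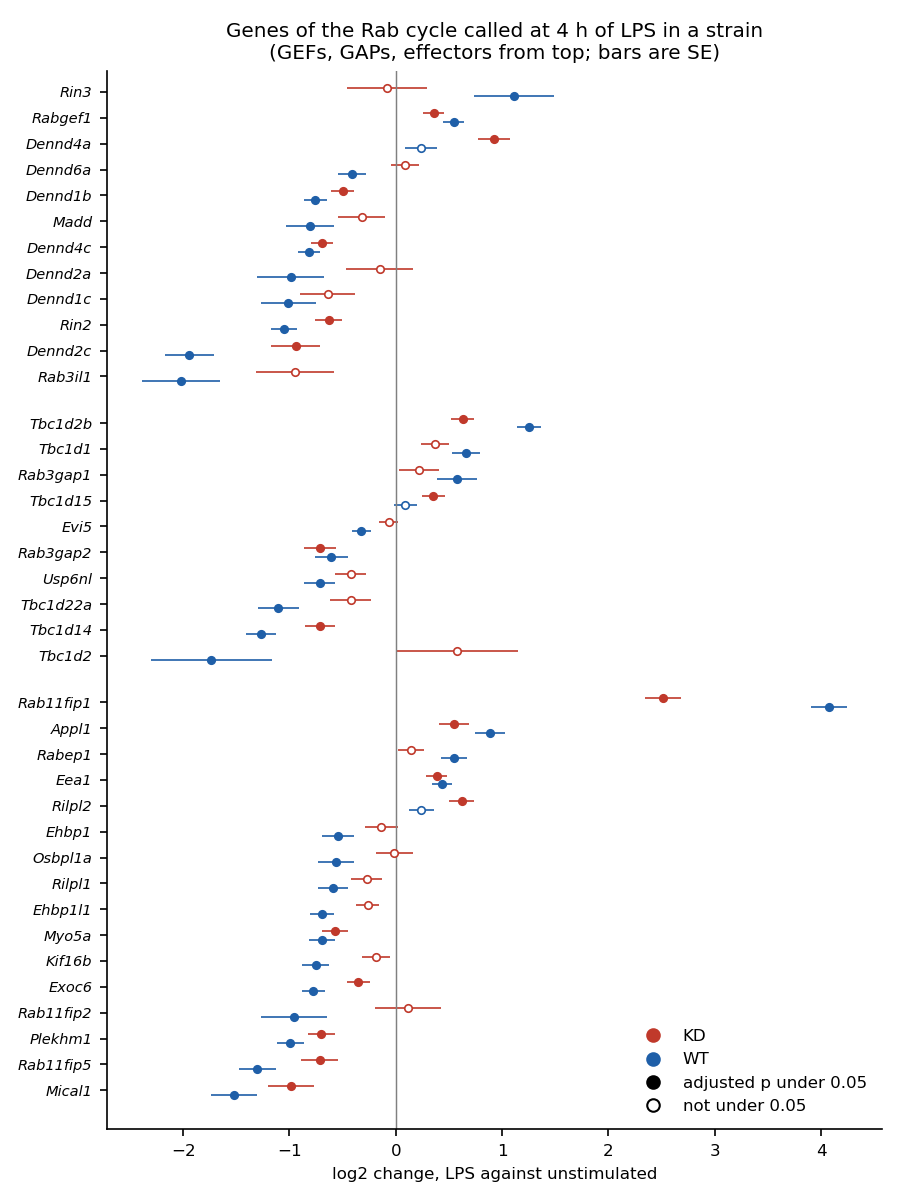
Log2 change with 4 h of LPS for the GEF, GAP and effector genes called in either strain, with KD macrophages in red above WT macrophages in blue, bars for the standard error and filled marks for adjusted p under 0.05. Rab11fip1 has the highest value in both strains, at 2.51 in KD cells and 4.07 in WT cells.

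Other genes of these lists moved at 4 h. Rabgef1, also called Rabex-5, a GEF of Rab5, was called higher at both times in both strains, with 0.36 ± 0.10 in KD cells and 0.54 ± 0.10 in WT cells at 4 h. Rin2, another GEF of Rab5, was called lower in both strains (-0.63 ± 0.12 in KD cells, -1.05 ± 0.12 in WT cells). The effectors Appl1 (0.55 ± 0.14 in KD cells, 0.88 ± 0.14 in WT cells) and Eea1 (0.38 ± 0.10 and 0.43 ± 0.10 in the same order) were called higher in both, and Rabep1, which binds Rab5, was called higher in WT cells (0.54 ± 0.12) and not in KD cells (0.14 ± 0.12). Rbsn, a further Rab5 effector, was not called in any of the 4 LPS comparisons. Among other GEFs, Dennd2c was -0.94 ± 0.23 in KD cells and -1.94 ± 0.23 in WT cells, and Rab3il1 was called in WT cells (-2.02 ± 0.37). Dennd4a was called higher in KD cells (0.93 ± 0.15), where it stood lower than in WT before stimulation (-1.19 ± 0.15, adjusted p = 0.000133). Its unstimulated WT arrays were unlike, at 1084.6 and 735.8, against 392.2 and 384.0 in KD cells. At 1 h Dennd4a was called lower in WT cells (-0.73 ± 0.15, adjusted p = 0.00508). The strain difference in its 1 h response was called too (1.03 ± 0.21, adjusted p = 0.0414). Among GAPs, Tbc1d2b rose by 0.63 ± 0.11 in KD cells and 1.25 ± 0.11 in WT cells, with a strain difference in response of -0.62 ± 0.15 (adjusted p = 0.0335) that was lost with 7 of the 12 arrays dropped in turn. Tbc1d14, a GAP-domain protein of autophagy, fell by 0.71 in KD cells and by 1.27 in WT cells. Among effectors, Mical1, an actin-oxidizing protein, fell by 0.99 in KD cells and by 1.52 in WT cells. Plekhm1, a Rab7 effector of lysosome fusion, fell by 0.70 in KD cells and by 0.99 in WT cells.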

How the data were processed

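Per the labels' protocols, RNA was extracted with RNeasy and labelled with the NuGEN Ovation method; the array has 45101 probe sets, 64 of them controls. The deposited values are MAS5 intensity (linear signal), per the submitters' processing notes; on every array their mean, trimmed by 2% at each end, was 150. Arrays carry no read depth, and 2 arrays a group limit the precision. Symbols came from the platform annotation, which gives 1 symbol to 34958 probe sets, several to 932 and none to 9211; all 49 members' Entrez identifiers matched the current gene table, with 0 symbols changed.

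Signals were analysed as log2(signal + 4.4), 4.4 being the 20th percentile of all values, which understates changes of dim genes. Probe sets above the array median on 2 or more arrays (27931) were fitted with limma 3.58.1 in R 4.3.3 (lmFit, eBayes with a mean-variance trend) over all 6 groups, with 9 contrasts. Benjamini-Hochberg adjustment ran over all these probe sets within each contrast, and not across contrasts. The step was tested on simulated data. Lists take 1 probe set a gene, the one with the highest mean signal. Members, lists, roles and markers were chosen with earlier results of these data known. Named members were those called, up to 12 per LPS comparison and 8 per strain comparison, with 15 Rabs of macrophage traffic whatever their call. Of the Rab cycle lists, a selection was named that did not go by size of change alone. It includes GEFs and effectors of Rab5 with small changes or, for Rbsn, no call. Some larger called changes at 4 h in WT cells went unnamed, such as Tbc1d2 (-1.73) and Rab11fip5 (-1.30). Results were recomputed after quantile normalization, with the filter dropped or made stricter (75th percentile), with 2 other pseudocounts, no variance trend, a replicate block, the arrays of the comparison alone, another choice of probe set, and each array left out.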

Additional observations from a re-analysis of the deposited data

Results flagged for a closer look

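The response to 4 h of LPS differed between the strains, by the test of the difference itself, in Rab39 and in Rab7b. For Rab39 the KD change minus the WT change was 1.81 ± 0.38 on the log2 scale, with changes of -1.44 in KD cells and -3.25 in WT cells. For Rab7b it was 1.36 ± 0.15, with changes of -0.97 in KD cells and -2.33 in WT cells. Over the 21 alternative settings the value lay between 1.34 and 2.27 for Rab39, of which 17 kept the call, and between 1.29 and 2.95 for Rab7b, of which 20 kept it. The cause was not tested.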

How the results depend on the processing

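The alternative settings did not try every probe set of a gene. Another probe set of Rab21 (0.17), of Rab22a (0.34) and of Rab2a (-0.25) had the sign opposite to the call. Within the settings tried, none of the 40 called gene results reversed. They were kept in 34 cases under quantile normalization, 27 without a filter, all 33 that could be tested under the stricter filter, 39 with a pseudocount of 1, 38 with the median (23.4), 19 without the variance trend, 27 with the arrays of the comparison alone, and 33 of 38 when identifiers without a suffix were preferred. Counts of called members changed as follows. Without a filter they were 2 for LPS at 1 h in KD cells (in place of 5) and 0 between unstimulated strains (in place of 2). Without the variance trend they were 0 at 1 h in KD cells, 5 at 4 h in KD cells, 0 at 1 h in WT cells, 0 between unstimulated strains and 0 for the 4 h difference in response. With the arrays of the comparison alone they were 1 at 1 h in KD cells, 1 at 1 h in WT cells, 0 between unstimulated strains and 3 between strains at 4 h (in place of 6). Preferring identifiers without a suffix gave 1 between unstimulated strains, and quantile normalization gave 1 for the 1 h difference in response (Rab2a, in place of 0). Leaving out 1 array gave 0 to 6 and 5 to 9 in KD cells at 1 h and 4 h, 0 to 3 in WT cells at 1 h, 1 to 4 between unstimulated strains, 1 to 6 between strains at 4 h and 1 to 4 for the 4 h difference in response. In WT cells at 4 h the range was 10 to 13. The cause of these changes was not tested.

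Same-numbered replicates did not deviate together (correlations of -0.068 to 0.040), so the numbers were not taken as pairs. A replicate block kept 37 of the 40 calls and gave 1 called member between strains at 1 h (Rab24, in place of 0). Dim members such as Rab19, Rab38 and Rab42, near or below the array median in some groups, have uncertain fold changes.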
